A study of Sus scrofa with 15 samples.

Results

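The 8 genes described here encode the CD8 chains (CD8A, CD8B), the CD3 chains (CD3D, CD3E, CD3G) and the T cell surface proteins CD4, CD5 and CD6. They were taken by symbol from the 29886 genes of a count table of porcine natural killer (NK) cells. RNA was measured in 3 populations purified by fluorescence-activated cell sorting (FACS) from the same 5 pigs, 6 months old, with 1 library per pig and population and 15 libraries in all. The blood NK cells were the CD8αhigh NK cells of peripheral blood mononuclear cells. The labels call the CD8αhigh population of the liver conventional liver NK cells and the CD8αdim population of the liver resident NK cells, here lrNK cells. Liver cells were collected by flushing the organ through the portal vein, so they stand for what the flush released. The labels name no treatment and no gene alteration. NK cells were gated as negative for CD3 and for the myeloid protein CD172a, and the CD8α signal then separated dim from high cells. The proteins of CD3 and CD8α were thus part of the gate, and the question was whether the transcripts followed it and whether other T cell transcripts were present.

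CD8 is a surface co-receptor for MHC class I that forms either from paired α chains or from an α and a β chain. NK cells of many species carry the αα form, and porcine NK cells are defined by CD8α, while the αβ form marks cytotoxic T cells. The γ, δ and ε chains of CD3 carry the T cell receptor (TCR) to the surface and, with the ζ chain CD247, pass on its signal, whereas NK cells use CD247 with other receptors. CD4 is the co-receptor for MHC class II, and CD5 and CD6 are scavenger receptor proteins that dampen or tune TCR signals.

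The libraries read each polyadenylated transcript near its 3′ end, so counts did not grow with transcript length. Totals were 2874092 to 3823973 counts in blood NK cells, 2886686 to 5680221 in liver CD8αhigh NK cells and 2003499 to 3776823 in lrNK cells. Levels are CPM, counts per 1000000 counts of the library after scaling by edgeR's TMM factors, and 3 counts correspond to between 0.517 and 1.46 CPM in a single library. Summed NK cell markers reached 4484 to 7728 CPM in all 3 populations, with none of the 13 markers at 0 throughout. The lrNK library of pig 3 stood apart, with a root mean square distance of 1.46 (log2 CPM) from the other 4 lrNK libraries against 0.643 to 0.996 for the other 14 libraries, and the tested genes of this group, and calls that depended on it, are also given without it. The quasi-likelihood test of edgeR was run over 10939 genes, with Benjamini-Hochberg adjustment over all of them and a call at an adjusted p under 0.05. The replicates are separate animals. The main fit held the population only, so libraries of the same pig were taken as unpaired. These are bulk samples, in which fewer cells of a type and less RNA per cell cannot be told apart.

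CD8A and CD3G were abundant and were both lower in lrNK cells than in either CD8αhigh population. CD3D and CD3E were rare, CD8B and CD6 were near the detection limit, and CD4 and CD5 were listed at 0 in all 15 libraries. Of the 8 genes, 4 passed the filter on low counts (CD8A, CD3D, CD3E and CD3G), and 2 of these were called lower in lrNK cells than in blood NK cells, where 18.2% of all genes tested were called 8.62% being called higher and 9.6% lower. In lrNK against liver CD8αhigh NK cells, the same 2 genes were called lower, against 14.6% of all genes called, 6.96% higher and 7.68% lower. They were also called against the mean of both CD8αhigh populations, the contrast of the gate, where 20.7% of all genes were called and 10.2% were called lower. Between liver CD8αhigh and blood NK cells edgeR called 0 of the 4 and DESeq2 also called 0, beside 0.064% and 0.229% of all genes. An unadjusted edgeR p under 0.05 was reached by 0 of the 4, beside 549 of the 10939 genes tested. Since a gene could pass the filter through the population where it was high, these counts describe the 4 genes and not all 8.

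**Figure D1:**
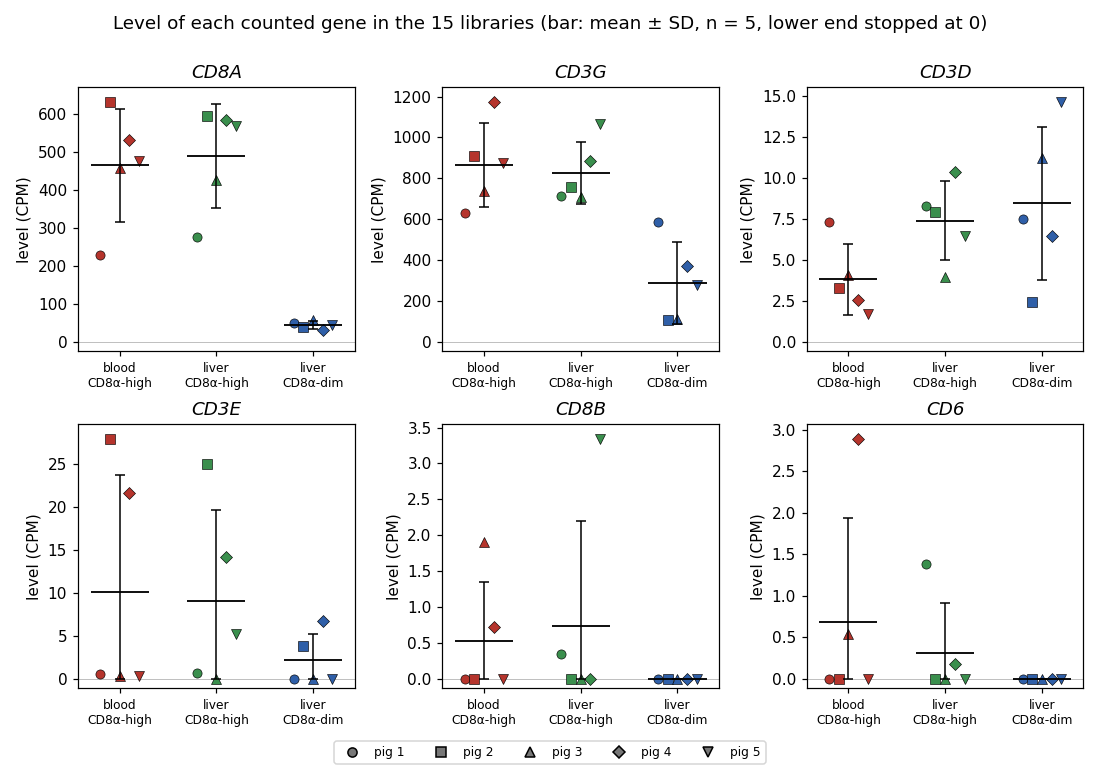
Level in CPM of the 6 genes with any count, 1 panel per gene with its own linear axis; symbols are pigs, horizontal lines are means and bars are SD (n = 5), with the lower end of a bar stopped at 0. CD8A and CD3G of lrNK cells lie below all 10 CD8αhigh libraries, while CD3D does not separate the populations and CD3E is high in single pigs.

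CD8A encodes the CD8α chain, the protein used for the gate. It lies on chromosome 3 at 57999228 to 58029768 (Sscrofa11.1). In blood NK cells of pigs 1 to 5 its level was 229, 634, 457, 532 and 476 CPM. In liver CD8αhigh NK cells it was 276, 596, 426, 585 and 568 CPM. In lrNK cells it was 49.4, 37.9, 57.0, 29.5 and 43.1 CPM. The liver CD8αhigh range lay inside that of blood, whereas the highest lrNK library was below the lowest CD8αhigh library. Such a lack of overlap was seen for 13.5% of all genes tested between lrNK and blood NK cells and for 11.9% between lrNK and liver CD8αhigh NK cells.

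The mean CD8A level was 466 ± 149 CPM (SD, n = 5) in blood NK cells, 490.3 ± 138 CPM in liver CD8αhigh NK cells and 43.4 ± 10.5 CPM in lrNK cells. Transcript levels thus lay in the same order as the protein gate. The level in lrNK cells was 10.8-fold below blood (log2 fold change -3.43, SE 0.27, edgeR adjusted p = 1.24e-08) and 11.3-fold below liver CD8αhigh NK cells (log2 fold change -3.50, SE 0.27, edgeR adjusted p = 9.34e-09), lower in 5 of 5 pigs each time. Without the lrNK library of pig 3 the log2 fold changes were -3.53 and -3.62. CD8A transcripts were not absent from the dim cells, since 79 to 165 counts per library put CD8A at the 63.0th percentile of the genes tested, against the 96.8th in blood and the 97.0th in liver CD8αhigh NK cells. Between liver CD8αhigh and blood NK cells the log2 fold change was 0.08 (95% interval -0.43 to 0.58, edgeR adjusted p = 1.00), so these populations, which shared the gate, did not differ beyond the spread between pigs. Pig 1 had the lowest CD8A level of both CD8αhigh populations, but an effect of the pig over all populations was not called (adjusted p = 0.770 in the test described for CD3E).

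CD8B, the gene of the β chain, is the neighbour of CD8A on chromosome 3, at 57968358 to 57986450, with 12777 bases between them. Its counts in pigs 1 to 5 were 0, 0, 7, 2 and 0 in blood NK cells and 1, 0, 0, 0 and 14 in liver CD8αhigh NK cells. In lrNK cells it was 0 in all 5 libraries. Only 2 libraries, blood of pig 3 and liver CD8αhigh of pig 5, thus held more than 3 counts. Of the CD8A and CD8B counts together, CD8B made up 9 of 7718 in blood NK cells (0.117%, exact binomial 95% interval 0.0533% to 0.221%) and 15 of 10376 in liver CD8αhigh NK cells (0.145%, 0.0809% to 0.238%). In lrNK cells the share was 0 of 585 (exact binomial 95% interval up to 0.629%; 3 counts of the total would be 0.513%), so a share like that of the other populations could not have been seen. These intervals cover counting error only. How well the 3′ end of CD8B was captured and annotated was not tested, so these are shares of counts and not of transcripts.

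The log2 ratio of CD8B to CD8A counts, with 0.5 added to each, averaged -10.3 ± 1.76 (SD, n = 5) in blood NK cells, -10.6 ± 2.28 in liver CD8αhigh NK cells and -7.84 ± 0.38 in lrNK cells. With CD8B at 0 in 11 of 15 libraries, most of these ratios are set by the added 0.5 and by CD8A, so their tests largely restate the difference in CD8A and say nothing of CD8B. Over the 3 comparisons, two-sided exact permutation tests gave adjusted p = 0.0595 for lrNK against blood (difference 2.44), 0.0595 for lrNK against liver CD8αhigh (2.74) and 0.794 for liver CD8αhigh against blood (-0.30). None passed the threshold.

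CD3G, the γ chain of CD3, was the most abundant of the 8 genes although the cells had been gated as CD3 negative. It lies on chromosome 9 at 45645243 to 45656779. Its level in pigs 1 to 5 was 629, 909, 738, 1176 and 876 CPM in blood NK cells. It was 711, 755, 709.8, 882 and 1064 CPM in liver CD8αhigh NK cells. In lrNK cells it was 586, 104, 109, 369.9 and 276 CPM. The 2 CD8αhigh populations overlapped. All lrNK libraries were lower than these 10, with pig 1 close to the lowest blood library and pigs 2 and 3 far below.

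Mean CD3G was 865 ± 206 CPM (SD, n = 5) in blood NK cells, 825 ± 151 CPM in liver CD8αhigh NK cells and 289 ± 201 CPM in lrNK cells. It was 2.99-fold lower in lrNK than in blood NK cells (log2 fold change -1.58, SE 0.34, edgeR adjusted p = 0.00216) and 2.85-fold lower than in liver CD8αhigh NK cells (log2 fold change -1.51, SE 0.34, edgeR adjusted p = 0.00374), in 5 of 5 pigs each time. Without the lrNK library of pig 3 the log2 fold changes were -1.36 and -1.31 and both calls held. Even so, CD3G in lrNK cells stood at the 94.7th percentile of the genes tested, against the 98.7th in blood and the 98.6th in liver CD8αhigh NK cells. Liver CD8αhigh and blood NK cells had a log2 fold change of -0.07 (95% interval -0.76 to 0.63, edgeR adjusted p = 1.00). Across the 15 libraries the log2 CPM of CD3G and CD8A had a Pearson correlation of 0.81, which includes the difference between populations that both showed.

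CD3D encodes the δ chain and lies 1089 bases from CD3G, at 45640475 to 45644153 of chromosome 9. Its counts were 5 to 27 per library in blood, 14 to 60 in liver CD8αhigh and 5 to 56 in lrNK cells. In CPM, pigs 1 to 5 had 7.32, 3.29, 4.07, 2.53 and 1.71 in blood NK cells. They had 8.29, 7.91, 3.90, 10.3 and 6.45 in liver CD8αhigh NK cells, and 7.48, 2.40, 11.2, 6.46 and 14.6 in lrNK cells. The populations overlapped, and unlike CD3G the δ chain was not lowest in lrNK cells. Means were 3.78 ± 2.16 CPM (SD, n = 5), 7.38 ± 2.39 CPM and 8.43 ± 4.67 CPM in this order, and no comparison passed the test. The log2 fold change of lrNK against blood NK cells was 1.15 (95% interval -0.04 to 2.33, edgeR adjusted p = 0.188), against liver CD8αhigh NK cells it was 0.20 (-0.96 to 1.35, adjusted p = 0.885), and liver CD8αhigh against blood gave 0.95 (-0.23 to 2.13, adjusted p = 1.00). Without the lrNK library of pig 3 the first of these was 1.05 and the second 0.09. On leaving out single pigs, the first ranged from 0.68 (without pig 5) to 1.58 (without pig 1) and was never called.

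CD3E, the ε chain that CD3 antibodies commonly bind, lies 6502 bases beyond CD3D at 45619730 to 45633972 of chromosome 9. Its counts in pigs 1 to 5 were 2, 102, 1, 60 and 1 in blood NK cells, 2, 95, 0, 82 and 22 in liver CD8αhigh NK cells and 0, 8, 0, 24 and 0 in lrNK cells. Pigs 2 and 4 had the highest CD3E counts in each of the 3 populations. Their levels were 28.0 and 21.7 CPM in blood NK cells, 25.1 and 14.1 CPM in liver CD8αhigh NK cells and 3.84 and 6.74 CPM in lrNK cells. Pigs 1 and 3 reached at most 0.691 CPM anywhere, and pig 5 had 5.25 CPM in liver CD8αhigh NK cells and at most 0.341 CPM elsewhere. CD3D and CD3G did not share this pattern by pig.

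**Figure D2:**
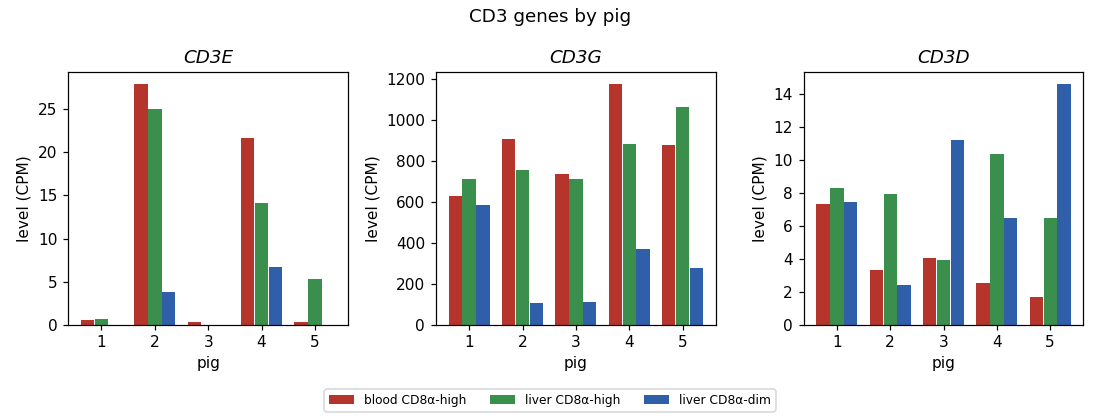
Levels of the 3 CD3 chains in CPM by pig, with 1 bar per library (colour: population) and a linear axis from 0 in each panel. CD3E is concentrated in pigs 2 and 4 in all 3 populations, CD3G is high in every CD8αhigh library, and CD3D has no order shared by the pigs.

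Mean CD3E was 10.2 ± 13.6 CPM (SD, n = 5) in blood NK cells, 9.03 ± 10.6 CPM in liver CD8αhigh NK cells and 2.12 ± 3.07 CPM in lrNK cells. Without regard to the pig, lrNK cells did not differ beyond this spread from blood (log2 fold change -2.21, SE 1.35, edgeR adjusted p = 0.301) or from liver CD8αhigh NK cells (log2 fold change -2.05, SE 1.34, edgeR adjusted p = 0.381). With the pig as a block, the log2 fold change was -2.77 (SE 0.89, edgeR adjusted p = 0.0418) against liver CD8αhigh NK cells, which passed the threshold, and -2.29 (adjusted p = 0.0741) against blood, which did not. Within pigs, CD3E was lower in lrNK than in liver CD8αhigh NK cells in 4 of 5, with 0 counts in both libraries of pig 3, and lower than in blood in 5 of 5, although in pigs 1, 3 and 5 this rested on 1 or 2 counts in blood against 0. Without the lrNK library of pig 3 the log2 fold changes in the fit without the block were -1.91 and -1.76 against blood and liver CD8αhigh NK cells. They were -1.65 and -1.51 without pig 2 and -3.0 and -3.09 without pig 4, and none of these was called. Blocking brought the genes of this group called lower in lrNK against liver CD8αhigh NK cells to 3 of the 4 tested, where 15.7% of all genes were called and 8.54% were called lower. Against the mean of both CD8αhigh populations the block also gave 3 of 4 (CD3E -2.53, adjusted p = 0.0310), where 21.5% of all genes were called and 11.2% were called lower.

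A test of the pig itself was added after these counts had been seen, so it describes them and is not independent of them. In the blocked fit, the 4 pig terms gave CD3E an F of 14.8 and an adjusted p of 0.0110 (edgeR quasi-likelihood F test), rank 18 of the genes tested, where 0.421% of all genes were called. Adjusted p was 0.764 for CD3G, 0.978 for CD3D and 0.883 for CD247. Without the 5 blood libraries the CD3E value was F = 6.57 with an adjusted p of 0.889, and 0 genes were called. Without the lrNK libraries it was F = 17.1 with an adjusted p of 4.60e-04. Without the liver CD8αhigh libraries CD3E did not pass the filter on low counts, so that no value was obtained.

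The CD3 chains were not counted in equal numbers. Reads of CD3G outnumbered those of CD3D by 85.9 to 514 times (median 276) in blood NK cells, by 85.3 to 182 times (median 95.5) in liver CD8αhigh NK cells and by 9.74 to 78.3 times (median 43.2) in lrNK cells. The lrNK range ended below that of both other populations. The proportion of CD3G to CD3E did not follow this order. In the 7 libraries with more than 3 CD3E counts, CD3G reads per CD3E read ran from 32.5 to 54.2 (median 43.4) in blood NK cells, from 30.1 to 202 (median 62.4) in liver CD8αhigh NK cells and from 27.0 to 54.9 (median 40.9) in lrNK cells, so the ranges overlapped. CD3G reads per CD8A read ran from 1.43 to 2.75 in blood, from 1.27 to 2.58 in liver CD8αhigh and from 1.91 to 12.5 in lrNK cells. The lrNK ratios of pigs 1, 4 and 5 (11.8, 12.5 and 6.41) lay above all CD8αhigh libraries, whereas pigs 2 and 3 (2.73 and 1.91) lay inside their range. Counts of different genes from 3′ reads also carry differences in priming and annotation, and no gene annotated in the assembly overlaps CD3D, CD3E or CD3G.

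**Figure D3:**
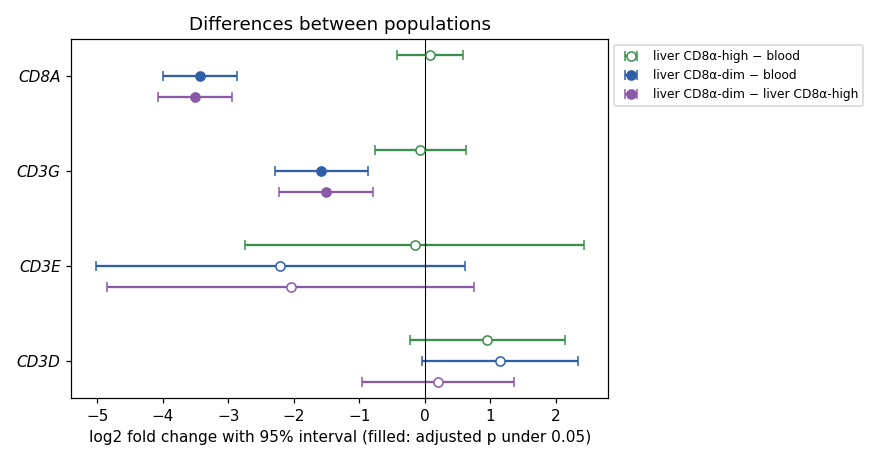
Log2 fold changes (points) with 95% intervals (bars) of the 4 genes that passed the filter, for the 3 comparisons between populations; filled points have an edgeR adjusted p under 0.05 in the fit without the pig. CD8A and CD3G lie left of 0 in both comparisons with lrNK cells, and the intervals of CD3E and CD3D all include 0.

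CD4, CD5 and CD6 complete the group. CD4 (chromosome 5, 63892129 to 63918547) and CD5 (chromosome 2, 10648973 to 10673479) had 0 counts in all 15 libraries, that is 0 of 51164695 counts, which allows up to 0.0589 CPM over all libraries. CD79A, a B cell gene, was also at 0 in all 15 libraries although the other 7 B cell markers were counted, so a 0 in this table need not stand for absent RNA. CD6 (chromosome 2, 10739560 to 10785548) had 15 counts in all, in 4 libraries. These were 2 and 8 counts in blood of pigs 3 and 4, and 4 and 1 counts in liver CD8αhigh NK cells of pigs 1 and 4. It was 0 in all 5 lrNK libraries, which over the population allows up to 0.215 CPM by counting error alone. The means of 0.687 CPM in blood and 0.311 CPM in liver CD8αhigh NK cells each came from 2 libraries and mostly from 1 (pig 4 with 2.89 CPM and pig 1 with 1.38 CPM), so no difference is read from them. Another annotated gene overlaps CD6, and with the strand rule of counting unknown the reads of that gene could not be separated from those of CD6.

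Apart from CD3G, the T cell markers that could be read were at low levels. The list of T cell markers held 8 symbols, of which 6 were analysed here (CD3D, CD3E, CD3G, CD5, CD6 and CD28), and 2 of these, CD5 and the costimulatory receptor CD28, were at 0 throughout. Their summed level was 637 to 1203 CPM in blood, 714 to 1076 CPM in liver CD8αhigh and 110 to 593 CPM in lrNK cells. Without CD3G the other 5 genes summed to 2.05 to 31.2 CPM (median 7.86), 3.90 to 33.0 CPM (median 11.7) and 6.24 to 14.6 CPM (median 11.2) in the same order. The populations overlapped in this remainder, and the upper ends of the CD8αhigh ranges were pigs 2 and 4, whose CD3E was high. The 10 symbols of TCR chains were not analysed here, so these levels leave out the receptor itself. THEMIS, a signalling protein of developing T cells from the list of TCR adaptors, is named after its values were seen. It had 4.93 to 62.5 CPM in blood, 1.05 to 53.1 CPM in liver CD8αhigh and 1.04 to 39.9 CPM in lrNK cells, with the highest level in pig 4 of both CD8αhigh populations and in pig 3 of lrNK cells. These 3 THEMIS levels were above the sum of the 5 markers in any library, and the gene was not called in lrNK against blood (edgeR adjusted p = 0.530) or liver CD8αhigh NK cells (0.676).

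**Figure D4:**
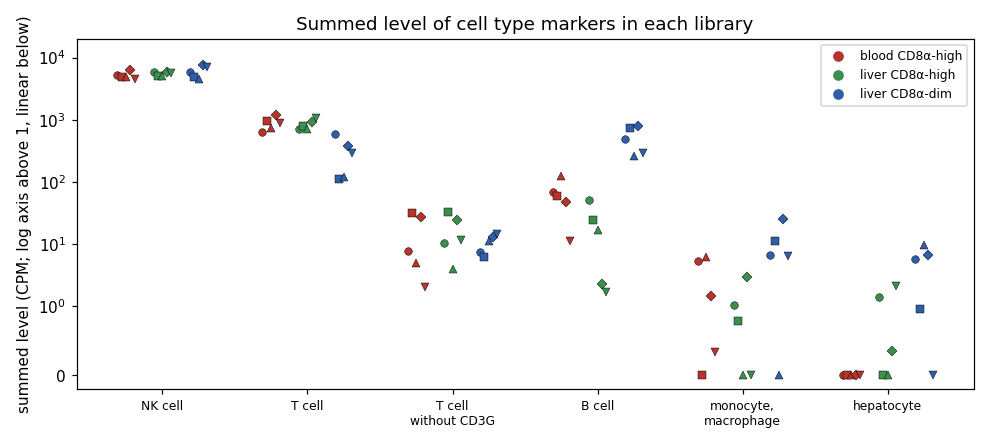
Summed level in CPM of 5 lists of cell type markers, with the T cell list shown also without CD3G, in each library (symbols: pigs as in the plot of levels by library; colour: population); the axis is logarithmic above 1 and linear below. T cell markers fall from between 110 and 1203 CPM to at most 33.0 when CD3G is left out, and B cell markers are above 259 CPM in every lrNK library.

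Some markers of other cells also differed between the populations. B cell markers summed to 11.3 to 125 CPM in blood, 1.67 to 51.5 CPM in liver CD8αhigh and 259 to 793 CPM in lrNK cells. All 7 tested were called higher in lrNK cells in both comparisons. Of all genes tested, 8.62% were called higher against blood and 6.96% against liver CD8αhigh NK cells. The part of B cell RNA in the differences of CD8A and CD3G was not tested. Monocyte and macrophage markers reached at most 25.6 CPM, with 7 of 11, among them CSF1R and CD163, at 0 throughout, and hepatocyte markers at most 9.74 CPM. The 1 monocyte marker tested was called higher in lrNK than in liver CD8αhigh NK cells, though not with the pig as a block. Dendritic cell markers summed to 11.4 to 43.0, 5.58 to 30.7 and 28.6 to 86.7 CPM. Of the 3 tested, XCR1 and TCF4 were called higher in lrNK cells in both comparisons, beside the same shares of all genes. CADM1 went the other way, with means of 15.1, 12.0 and 2.78 CPM in blood, liver CD8αhigh and lrNK cells, and was not called. Endothelial markers summed to at most 18.5 CPM, and red cell and platelet markers to 69.1 to 393 CPM over all libraries. Of these, 1 and 2 markers were tested and 0 were called.

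Genes that carry the TCR signal inward moved in both directions. Of 16 listed genes of the TCR complex and its proximal adaptors, 13 were tested, and 6 were higher and 2 lower in lrNK than in blood NK cells, beside 18.2% of all genes called (8.62% higher and 9.6% lower), with a median log2 fold change of 0.16 beside 0.01 over all genes tested. Against liver CD8αhigh NK cells 5 were higher and 1 lower, beside 14.6% of all genes called (median 0.05, beside 0.02 over all genes). Between liver CD8αhigh and blood NK cells edgeR called 0 of these genes and DESeq2 called 1, beside 0.229% of all genes.

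CD247, the ζ chain shared by CD3 and NK cell receptors, had 285 ± 26.1 CPM in blood, 286 ± 35.0 CPM in liver CD8αhigh and 415 ± 142 CPM in lrNK cells (SD, n = 5), where pig 3 had 669 CPM and the others 331 to 362 CPM. It was higher in lrNK cells by a log2 fold change of 0.54 (SE 0.18, edgeR adjusted p = 0.0379) against blood and 0.54 (SE 0.18, adjusted p = 0.0479) against liver CD8αhigh NK cells, the opposite direction from CD3G. Both calls were lost without the lrNK library of pig 3 (0.32, adjusted p = 0.0924, and 0.30, adjusted p = 0.144), and with the pig as a block the second had an adjusted p of 0.0583. Leaving out any pig except pig 2 ended the first call and leaving out any of the 5 pigs ended the second. Reads of CD247 per CD3G read were 0.214 to 0.476 in blood, 0.288 to 0.431 in liver CD8αhigh and 0.607 to 6.13 in lrNK cells, without overlap. LCK, the kinase that binds the tails of CD4 and CD8, had 214 ± 15.9, 187 ± 12.7 and 167 ± 38.3 CPM (SD, n = 5) in the same order, and its log2 fold change of -0.36 between lrNK and blood NK cells was not called (edgeR adjusted p = 0.125).

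Among the adaptors, SIT1, which encodes an inhibitory transmembrane adaptor of lymphocytes, rose from 9.41 ± 3.54 CPM in blood to 105 ± 31.8 CPM in lrNK cells (SD, n = 5; log2 fold change 3.47, SE 0.57, edgeR adjusted p = 1.43e-04). In liver CD8αhigh NK cells pig 1 had 53.2 CPM and the other pigs 3.34 to 9.65 CPM. The kinase FYN (log2 fold change 0.94, adjusted p = 3.70e-04), the adaptor LCP2 (0.82, adjusted p = 1.69e-04) and the phosphatase UBASH3B (0.79, adjusted p = 0.0287) were also higher than in blood, though UBASH3B lost its call without pig 1, 4 or 5 (adjusted p up to 0.170). GRAP2, the adaptor that joins LCP2 to LAT, fell from 185 counts in blood and 287 in liver CD8αhigh NK cells to 5 in lrNK cells. The ratio of summed counts was 30.8-fold lower than blood (exact Poisson 95% interval 13.0 to 96.1, counting error only), and edgeR's fit gave 31.0-fold (adjusted p = 6.17e-05). LAT itself was lower in lrNK than in blood NK cells (31.5 ± 22.5 against 68.9 ± 11.6 CPM, log2 fold change -1.14, edgeR adjusted p = 0.0140), and the lrNK library of pig 3 with 70.6 CPM overlapped the blood range. Leaving out pig 1, 2, 4 or 5 ended that call, with adjusted p up to 0.0967, whereas without the lrNK library of pig 3 the log2 fold change was -1.63 (adjusted p = 2.01e-05), and LAT was then also called against liver CD8αhigh NK cells (-1.41, adjusted p = 1.35e-04, against 0.0627 with all libraries).

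**Figure D5:**
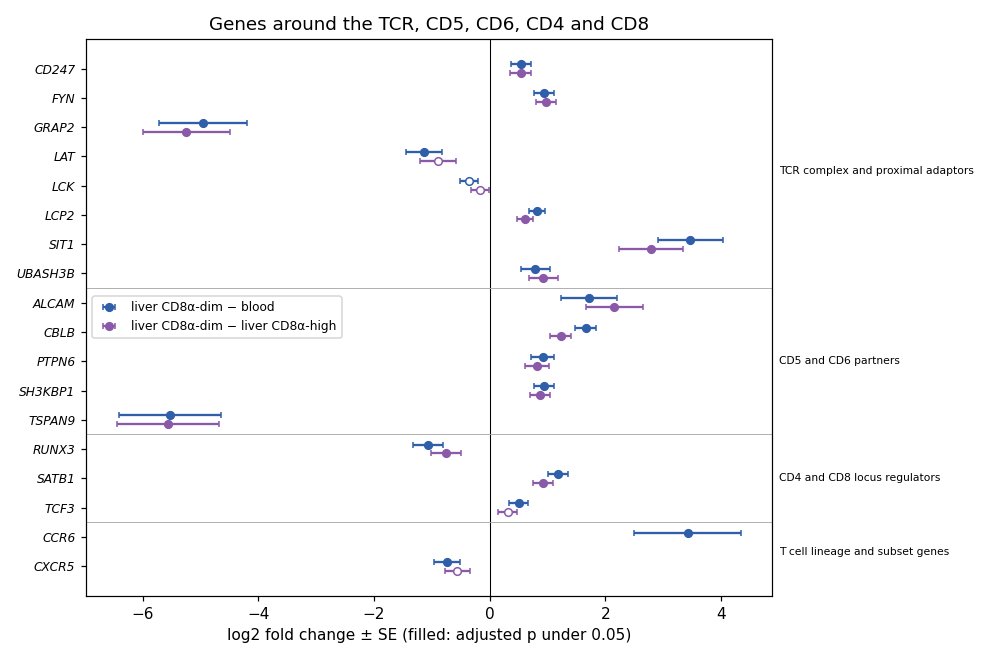
Log2 fold changes with SE of the genes named from 4 lists, for lrNK cells against each CD8αhigh population; filled points have an edgeR adjusted p under 0.05, and CCR6 against liver CD8αhigh NK cells is left out because it was at 0 in all 5 of those libraries. SIT1 and CCR6 lie furthest right, GRAP2 and TSPAN9 furthest left.

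Partners of CD5 and CD6 were counted although CD5 was not. Of 11 listed genes 9 were tested, and 4 were higher and 1 lower in lrNK than in blood NK cells (median log2 fold change 0.72), beside 18.2% of all genes called, and 5 higher and 1 lower than in liver CD8αhigh NK cells (median 0.81), beside 14.6%. ALCAM, the ligand of CD6, had 12.0 ± 6.34 CPM in blood, 8.94 ± 5.31 CPM in liver CD8αhigh and 39.4 ± 16.7 CPM in lrNK cells (SD, n = 5; lrNK against blood, log2 fold change 1.71, SE 0.48, edgeR adjusted p = 0.0160). Without pig 2 or without pig 5 that call was lost (adjusted p = 0.134 and 0.0569). The ubiquitin ligase CBLB rose by 1.66 (SE 0.18, edgeR adjusted p = 9.94e-07), the phosphatase PTPN6 by 0.91 (adjusted p = 0.00278) and the CD2 and CBL binding adaptor SH3KBP1 by 0.93 (adjusted p = 5.22e-04). The tetraspanin TSPAN9 fell from 142 counts in blood to 2 in lrNK cells. The ratio of summed counts was 59.2-fold lower (exact Poisson 95% interval 16.1 to 493, counting error only), and edgeR's fit gave 46.2-fold (adjusted p = 1.05e-04). Liver CD8αhigh and blood NK cells had 0 calls by edgeR in this list, beside 0.064% of all genes. An unadjusted edgeR p under 0.05 was reached by 1 gene, CBLB, beside 549 of the 10939 genes tested.

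Of the regulators of the CD4 and CD8 genes in T cells, a share near that of all genes was called. Of 15 tested, 2 were higher and 1 lower in lrNK than in blood NK cells, beside 18.2% of all genes called. The median log2 fold change was -0.03. Against liver CD8αhigh NK cells 1 was higher and 1 lower, beside 14.6% (median 0.13). Between the CD8αhigh populations edgeR called 0 of the 15. An unadjusted edgeR p under 0.05 was reached by 0 of them, beside 549 of the 10939 genes tested. With the pig as a block 2 were lower in each comparison with lrNK cells, beside 10.6% of all genes called lower against blood and 8.54% against liver CD8αhigh NK cells (19.4% and 15.7% called in either direction), the second being TOX, a nuclear factor of lymphocyte development (log2 fold change -0.49, adjusted p = 0.0444 against blood, and -0.53, adjusted p = 0.0338 against liver CD8αhigh NK cells). RUNX3, the factor that activates CD8 and silences CD4 in T cells, was lower in lrNK than in blood NK cells (log2 fold change -1.07, SE 0.25, edgeR adjusted p = 0.00479). Against liver CD8αhigh NK cells it had -0.75 (edgeR adjusted p = 0.0497). That call was lost without pig 1, 2, 4 or 5 (adjusted p up to 0.203) and without the liver CD8αhigh library of pig 1 (0.0829). The call held without the lrNK library of pig 3 (-1.04, adjusted p = 0.00156), without pig 3 (-1.01, 0.00776) and with the pig as a block (-0.87, 0.00781). The chromatin organiser SATB1 rose against blood by 1.18 (SE 0.17, edgeR adjusted p = 3.89e-05) and the E protein TCF3 by 0.50 (adjusted p = 0.0329), and the TCF3 call was lost on leaving out any of the 5 pigs except pig 5. BCL11B, a factor that T cells need, had 7 counts in all, from 1 library (liver CD8αhigh, pig 4).

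Of 16 genes of T cell lineages and subsets, 8 were tested and 4 (CTLA4, MAL, TNFRSF4 and SOX13) were at 0 in all 15 libraries. The chemokine receptor CCR6 had 0 to 11 counts in blood, 0 in all liver CD8αhigh libraries and 16 to 47 counts in lrNK cells, and was higher in lrNK than in blood NK cells (log2 fold change 3.42, SE 0.92, edgeR adjusted p = 0.0144). CXCR5, a receptor of B and follicular T cells, was lower (-0.73, adjusted p = 0.0240). Without pig 1 the CCR6 call was lost (adjusted p = 0.0618), and the CXCR5 call was lost without pig 1, 3 or 5 (adjusted p up to 0.112). Against blood, 1 gene was higher and 1 lower of the 8, beside 18.2% of all genes called. Against liver CD8αhigh NK cells 1 was higher, beside 14.6%, and 2 with the pig as a block, beside 15.7%, the second being SH2D1A, the SAP adaptor of T and NK cells (log2 fold change 4.40, adjusted p = 0.0401), which was higher in lrNK cells in pigs 2 to 5 and lower in pig 1 (2.08 against 4.83 CPM). Between the CD8αhigh populations edgeR called 0, and DESeq2 called 1, beside 0.229% of all genes. An unadjusted edgeR p under 0.05 was reached by 1, CCR6, beside 549 of the 10939 genes tested. SIT1, ALCAM and CCR6 are among the genes that B cells also express, and like the B cell markers they were higher in lrNK cells. CXCR5, a receptor of B cells too, was lower. The part of B cells in these results was not tested.

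For CD8A, CD3G and CD3E, the genes with the most similar pattern over the 15 libraries were taken as the 3 with the highest Pearson correlation of log2 CPM. These correlations include the differences between populations and are descriptions. For CD8A they included SHB (r = 0.98) and LOC110260288 (0.98), and SHB had 17.0, 19.8 and 0.097 CPM on average in blood, liver CD8αhigh and lrNK cells. For CD3G they were LIMS1 (0.95), NRARP (0.93) and LY9 (0.93), with LIMS1 at 177, 175 and 86.3 CPM. For CD3E the highest values were lower, with SLC31A2 (0.78), VPS33B (0.77) and PTS (0.77).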

How the data were processed

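RNA of 15 libraries (5 pigs, 3 sorted NK cell populations) was read with the QuantSeq 3′ kit. After trimming, the authors mapped reads with HISAT2 to the Sscrofa11.1 assembly and deposited raw whole-number counts for 29886 genes. The counting tool, strand setting and treatment of multiply aligned reads are not given in the sources used here. The 15 columns were assigned to population and pig from the labels.

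Counts were analysed in R 4.3.3 with edgeR 4.0.16 (TMM, default low-count filter, 10939 genes, quasi-likelihood test, Benjamini-Hochberg) in a single fit of population. Single ratios were compared by two-sided exact permutation tests. Figures used Python 3.11.15 and matplotlib 3.10.9. Alternatives were DESeq2 1.42.0, its size factors, other filters and dispersions, the pig as a block, only the populations compared, and leaving out pigs or libraries. The pairing by pig comes from the labels, and same-pig libraries deviated together (mean r = 0.107 over 15 pairs, against -0.0265 over 60 other pairs). The test was checked on simulated counts. Coordinates come from a RefSeq table of Sscrofa11.1, which matched 29862 genes.

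The genes and lists were chosen with earlier results of these data known. Named from each list were at most 6 genes called in lrNK or liver CD8αhigh against blood NK cells with the largest fold changes, plus CD247, LCK and BCL11B. The gene lists cover the TCR complex and adaptors, CD5 and CD6 partners, CD4 and CD8 regulators, T cell subsets and cell type markers. Results of some genes are not reported here, and no sequences are shown.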

Additional observations from a re-analysis of the deposited data

Results flagged for a closer look

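Among 68 sets of 5 libraries (the genes named above, by population), 8 held a library whose gap to its nearest neighbour was unusually large for the range of the set, where chance gives about 1 in 20 for continuous values. The sets of CD8B, CD6 and BCL11B are mostly 0 counts, for which 1 library with a few counts gives a large gap by construction. CD8B was 3.34 CPM in liver CD8αhigh NK cells of pig 5 and at most 0.345 CPM in the other 4 libraries of that population. CD6 was 2.89 CPM in blood of pig 4 (others at most 0.543) and 1.38 CPM in liver CD8αhigh NK cells of pig 1 (others at most 0.172). SIT1 was 53.2 CPM in liver CD8αhigh NK cells of pig 1, against 3.34 to 9.65 CPM in the others. In lrNK cells, LAT was 70.6 CPM in pig 3 (others 16.2 to 30.8), CD247 was 669 CPM in pig 3 (others 331 to 362) and SATB1 was 365 CPM in pig 4 (others 572 to 649). BCL11B was 1.21 CPM in liver CD8αhigh NK cells of pig 4 and 0 in the other 4.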

How the results depend on the processing

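The calls of CD8A and CD3G as lower in lrNK cells held under every alternative run, including each pig left out. Without each pig in turn, CD8A kept log2 fold changes of -3.65 to -3.25 against blood and -3.71 to -3.32 against liver CD8αhigh NK cells, and CD3G -2.09 to -1.35 and -1.98 to -1.33 (adjusted p at most 0.0425). With the pig as a replicate block, CD8A had -3.34 and -3.43, CD3G -1.77 and -1.69, and CD3E was called against liver CD8αhigh NK cells (-2.77) and against the mean of both CD8αhigh populations (-2.53, adjusted p = 0.0310). The sign of CD3E between liver CD8αhigh and blood NK cells turned to 0.48 with the block, 0.13 without liver CD8αhigh pig 1 and 0.09 without pig 4. None of these was called, and leaving out pigs gave -0.32 to 0.09. On leaving out pigs, CD3G between the same populations ranged from -0.16 to 0.041 and CD3D of lrNK against liver CD8αhigh NK cells from -0.15 to 0.45, with -0.08 without pig 3. The CD8B to CD8A log2 ratio passed the threshold with a pseudocount of 1 (2.76 and 3.04 for lrNK against blood and liver CD8αhigh NK cells, exact permutation adjusted p = 0.0238), but with CD8B at 0 in 11 of 15 libraries it restates CD8A, and these tests took libraries of the same pig as unpaired. Without single pigs it ranged from 1.83 to 3.06, from 2.17 to 3.67 and, between liver CD8αhigh and blood NK cells, from -1.40 to 0.56, with 0.50 without pig 4. RUNX3 against liver CD8αhigh NK cells lost its call with DESeq2's size factors (adjusted p = 0.0583). Over all results and alternatives, 933 values kept direction and call (list counts within 1.5 times), 49 lost and 8 gained a call, 8 changed sign and 30 list counts moved by more. CD8B, CD6 and CD3E had 3 or fewer counts in most libraries, so their values are imprecise.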
